A study of Mus musculus with 8 samples.

Results

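The genes described here encode the heavy chains of sarcomeric myosin, the motor protein of the thick filament in striated muscle. The entries whose gene name, split at commas, holds Myh1, Myh2, Myh3, Myh4, Myh6, Myh7, Myh7b or Myh8 were taken, which found all 8 genes among 43239 distinct names. Myh6 and Myh7 share 1 entry, so their values cannot be separated, and Myh4 is listed at 0 in all 8 libraries. That left 6 measurable rows. RNA was sequenced from the quadriceps of 8 female mice, 6 months old, 1 library each. The labels give 4 of the mice as wild type (WT) and 4 as knockout (KO) for Mss51, a gene for a mitochondrial protein of muscle. How the allele was made, which exons it removes and the strain background are not given in the sources used here.

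Each myosin heavy chain carries the ATPase and actin-binding head that sets how fast a fibre shortens. A fibre is typed by the chain it makes. Myh7 marks slow type I fibres, Myh2 fast oxidative type IIA fibres, Myh1 type IIX fibres and Myh4 the fastest and least oxidative type IIB fibres. Myh3 and Myh8 serve embryonic and newborn muscle, Myh6 is the fast chain of the heart, and Myh7b is a slow chain of a few specialised fibres. Quadriceps of the mouse is a mixed muscle in which fast fibres prevail.

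The labels were first checked on Mss51, in FPKM, the number of fragments scaled to transcript length and to the depth of the library. It stood at 22.9, 37.0, 27.5 and 24.8 FPKM in WT replicates 1 to 4 and at 340, 201, 216 and 207 in KO replicates 1 to 4, so each library labelled KO lies above all those labelled WT, the opposite of what the label would lead to. The log2 fold change, KO minus WT on the scale log2(FPKM + 0.5), was 3.07 (SE 0.20, limma adjusted p = 0.000643). The files give 1 value for the whole locus and do not show which exons were read. Every group and direction below is therefore that of the label. Of 11878 genes that averaged 1 FPKM or more, 6 (0.0505%) passed an adjusted p of 0.05, all of them higher in the libraries labelled KO. At an unadjusted p under 0.05, 891 genes (7.5%) were higher and 328 (2.76%) lower. Without KO replicate 1 the number past the adjusted threshold was 125 (1.05%), 113 of them higher (0.951%) and 12 lower (0.101%). After rescaling to an equal sum of named FPKM per library (TPM) it was 63 higher and 60 lower, while the median log2 fold change of all genes moved from 0.02 to -0.18. A rough estimate of depth gave 35.8 to 58.1 M fragments per library, with M for mega. The skeletal muscle markers Ckm, Des, Neb and Ryr1 were high in all 8 libraries. Of 8 heart markers, Nppa and Myl7 were listed at 0 in all 8 libraries, and Ryr2 and Mybpc3 stood at or below 0.0734 FPKM. Nppb was listed at 0 in all but KO replicate 1, at 0.105 FPKM. Others of that list were detected, Myl4 at 4.13 to 9.41, Tnnt2 at 0.402 to 2.00 and Tnni3, in a row shared with Dnaaf3, at 0.0746 to 4.80 FPKM. KO replicate 1 stood apart: its summed FPKM of 5 erythroid markers was 3171, against 509 to 1334 in the WT libraries and 652 to 1598 in the other KO libraries, and its summed FPKM of 4 endothelial markers was 46.6, the lowest of the 8. Of 6 adipocyte markers, Lep was lower without KO replicate 1 (log2 fold change -2.05, limma adjusted p = 0.0105), at 2.29 to 4.40 FPKM in the WT libraries, 2.79 in KO replicate 1 and 0.324 to 0.577 in the other KO libraries. Plin1 stood at 11.6 to 18.7 FPKM in the WT libraries, 15.5 in KO replicate 1 and 4.95 to 8.65 in the others. Lep and Plin1 are named for their values. Without KO replicate 1, Adipoq was at -0.62, Cidec at -0.33, Retn at -0.16 and Cfd at -0.02, and Lep was the only 1 of the 6 to pass. The 6 summed at 326 to 429 in the WT and 283 to 456 in the KO libraries. The part of these cells in the heavy chain values was not tested.

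The fast and developmental chains lie side by side on chromosome 11 (build mm10, which is GRCm38), all on the plus strand, in the order Myh3, Myh2, Myh1, Myh4 and Myh8. The coding sequences of Myh2, Myh1, Myh4 and Myh8 are close copies, which bears on how reads can be assigned. Myh3 is less alike, identical to each of them at 80.2% to 81.0% of aligned coding bases. Myh1 and Myh2 are identical at 91.0% of aligned coding bases, Myh1 and Myh4 at 90.1%, and Myh2 and Myh4 at 88.2%. The longest run of bases identical between the transcripts of Myh1 and Myh2 is 268 bases, longer than a read of 150 bases. Of all windows of 150 bases in the transcript, 2.50% in Myh1, 2.06% in Myh2 and 0.511% in Myh4 occur unchanged in another of the 8 genes. In Myh6 and Myh7 these shares are 5.53% and 5.43%, and in Myh3 and Myh7b they are 0%. The stretch of 75 coding bases within 1 exon that differs most among the 3 adult fast chains is shown because it is where a read best tells them apart. It lies at chr11:67191348-67191422 in exon 29 of Myh2, chr11:67217464-67217538 in exon 29 of Myh1 and chr11:67254458-67254532 in exon 28 of Myh4 (GENCODE M21, plus strand). Capitals mark the 28 positions at which the 3 are not all alike.
Myh2: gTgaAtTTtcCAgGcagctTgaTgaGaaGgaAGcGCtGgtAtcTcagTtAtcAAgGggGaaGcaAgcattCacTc
Myh1: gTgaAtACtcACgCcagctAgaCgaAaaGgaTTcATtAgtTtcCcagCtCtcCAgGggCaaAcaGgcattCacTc
Myh4: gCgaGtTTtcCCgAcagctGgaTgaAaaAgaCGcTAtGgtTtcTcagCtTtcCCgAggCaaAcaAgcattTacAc

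The sequences before the starts of the same 3 genes are shown because Myh2 and Myh1 are neighbours whose values differed across these libraries, with Myh4 next to them. They come from RefSeq (GRCm38.p6, plus strand), in which all 8 genes matched by symbol, and lie at chr11:67170777-67171026 for Myh2, chr11:67199852-67200051 for Myh1 and chr11:67237562-67237811 for Myh4. For Myh1 the first annotated transcript of GENCODE begins 50 bases ahead of the RefSeq start, and the sequence is printed only up to there. For Myh4 the RefSeq start, from which its distances are counted, lies at 67237812 and that of GENCODE at 67238029, farther into the gene. Capitals mark the longest string common to the windows of Myh2, Myh1, Myh4 and Myh8, which is TTCTAATTATATCC, and any TATAAA on the printed strand.
Myh2: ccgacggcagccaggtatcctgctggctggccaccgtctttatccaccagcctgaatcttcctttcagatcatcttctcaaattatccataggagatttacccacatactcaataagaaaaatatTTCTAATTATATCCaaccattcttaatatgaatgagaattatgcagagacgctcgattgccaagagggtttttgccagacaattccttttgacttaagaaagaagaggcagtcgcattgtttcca
Myh1: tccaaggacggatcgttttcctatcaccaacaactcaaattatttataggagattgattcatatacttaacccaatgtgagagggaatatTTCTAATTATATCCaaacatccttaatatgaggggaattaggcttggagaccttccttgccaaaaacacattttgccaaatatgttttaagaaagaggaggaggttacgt
Myh4: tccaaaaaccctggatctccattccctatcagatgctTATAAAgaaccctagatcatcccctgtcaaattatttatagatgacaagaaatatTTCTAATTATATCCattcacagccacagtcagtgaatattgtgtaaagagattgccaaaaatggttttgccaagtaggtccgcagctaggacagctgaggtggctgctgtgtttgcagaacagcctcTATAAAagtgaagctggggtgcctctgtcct

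On either strand, the 14-base string TTCTAATTATATCC occurs in 4 of 32851 RefSeq promoter windows of 250 bases (0.0122%), those of these 4 genes. It begins 125 bases before the RefSeq start in Myh2, 160 in Myh1, 158 in Myh4 and 54 in Myh8. It was chosen as the string these windows share, so its rarity is a description. TATAAA on the plus strand begins 32 bases before the RefSeq start in Myh1, 31 in Myh4 and 29 in Myh3, and Myh4 holds another at 213. That of Myh1 lies past the first GENCODE start and so outside the printed sequence. Matches on the minus strand lie at 208 bases in Myh1, 179 in Myh4 and 96 in Myh8. The window of Myh2 holds none on either strand. Over all windows 12.4% hold it on at least 1 strand. Other strings were searched on both strands. The E-box CANNTG (66.2% of all windows) occurs in the windows of Myh3, Myh4, Myh6, Myh7, Myh7b and Myh8 and not in those of Myh1 and Myh2. The MCAT string CATTCC (12.6%) occurs in Myh1, Myh4, Myh6 and Myh7, and the CArG box (1.47%) in Myh4. The MCAT match of Myh1 begins 16 bases before the RefSeq start, outside the printed sequence. The MEF3 string TCAGGTT (3.49%) occurs in none of the 8. For MEF2 only a single form of the site was searched, which reads the same on both strands (3.20%), and it occurs in none of the 8. Other forms of the MEF2 site were not searched, so these windows are not said to lack it. None of the matches found overlaps another.

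Myh2, the chain of type IIA fibres, was about as abundant in KO replicate 1 as in the WT libraries and much more abundant in the other 3 libraries labelled KO. Its FPKM was 127, 96.6, 141 and 156 in WT replicates 1 to 4 and 125, 494, 447 and 391 in KO replicates 1 to 4. KO replicates 2 to 4 all lie above every WT library, and KO replicate 1 lies within the WT range, so the groups overlap. Mean FPKM was 130 ± 25.4 for WT and 365 ± 165 for KO (SD, n = 4), a ratio of 2.80. The log2 fold change of Myh2 was 1.33 (SE 0.40, 95% interval 0.41 to 2.24) and did not pass after adjustment over all genes (limma, unadjusted p = 0.00953, adjusted p = 0.353). By fold Myh2 ranked 72 among the 11878 genes tested, and by p it ranked 318. Without KO replicate 1 the KO mean was 444 ± 51.6 FPKM (SD, n = 3), 3.41 times the WT mean. Myh2 then passed, with a log2 fold change of 1.78 (SE 0.17, 95% interval 1.40 to 2.17, limma adjusted p = 0.00647), rank 58 by fold and 12 by p. KO replicate 1 was singled out by values such as these, so every p-value given without it is a description. The adjusted p ranged from 0.00647 to 0.849 over the alternatives run for it, and leaving out KO replicate 1 with no rescaling was the only one of them in which it passed.

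Myh1, the chain of type IIX fibres and the neighbour of Myh2, showed no such gap. Its FPKM was 340, 242, 328 and 361 in WT replicates 1 to 4 and 303, 404, 336 and 289 in KO replicates 1 to 4. The lowest value was that of WT replicate 2 and the highest that of KO replicate 2, and the groups overlap across most of their range. Mean FPKM was 317 ± 52.4 for WT and 333 ± 51.2 for KO (SD, n = 4). For Myh1 the log2 fold change was 0.07 (SE 0.15, 95% interval -0.26 to 0.41, limma adjusted p = 0.904). Its sign depended on the setting, and it was -0.14 after rescaling to TPM, -0.08 after quantile normalization and -0.05 without WT replicate 2. These data leave room for a change of Myh1 in either direction within that interval.

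The joint row of Myh6 and Myh7 covers chr14:54941929-54994634. In skeletal muscle Myh7 is the slow type I chain, but the files do not divide the row. Of the heart markers given above, Nppa and Myl7 were listed at 0 in all 8 libraries. Myl4 and Tnnt2 were detected but are also on the list of partners of developing and regenerating muscle used below, and Tnni3 shares a row with Dnaaf3. The part of Myh6 in the joint row was not tested. Its FPKM was 30.5, 23.0, 41.5 and 33.9 in WT replicates 1 to 4 and 27.1, 29.9, 36.4 and 26.4 in KO replicates 1 to 4. All KO values lie between the lowest WT library, replicate 2, and the highest, replicate 3. The means were 32.2 ± 7.68 and 29.9 ± 4.58 FPKM (SD, n = 4), with a log2 fold change of -0.09 (SE 0.18, 95% interval -0.48 to 0.31, limma adjusted p = 0.905). Without WT replicate 3 it was 0.05.

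Of these 3 rows, the members that reached a mean of 1 FPKM, 0 passed the limma test in all 8 libraries, where 0.0505% of all genes did. Myh2 alone had an unadjusted p under 0.05, which 10.3% of all genes had. Without KO replicate 1, Myh2 passed, against 0.951% of all genes called higher. In that set of 7 libraries its groups no longer overlapped, as was so for 9.35% of all genes on the higher side. The other 4 measurable or listed rows fell below the mean of 1 FPKM and entered no call.

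Myh4, the chain of type IIB fibres, is written as 0 in all 8 files. Other abundant genes of fast fibres were also listed at 0 in some libraries, Atp2a1, the calcium pump of fast fibres, in 7 and Tnnt3, the fast troponin T, in 4. A value of 0 in these files is therefore not read as absence, and with no counts no limit can be set. The type IIB chain is missing from every share below, which describe only what was measurable.

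Myh7b, a slow chain whose locus in the files (chr2:155611212-155692384) also takes in Trpc4ap, was near or below 1 FPKM. It stood at 0.725, 0.384, 1.13 and 0.609 FPKM in WT replicates 1 to 4 and at 0.996, 0.659, 0.542 and 0.455 in KO replicates 1 to 4. The groups overlap, with means of 0.711 ± 0.311 and 0.663 ± 0.237 FPKM (SD, n = 4). The embryonic chain Myh3 stood at 0.206, 0.159, 0.212 and 0.269 FPKM in the WT libraries and at 0.170, 0.280, 0.263 and 0.263 in the KO libraries. WT replicate 2 and KO replicate 1 were the lowest, and the groups overlap. The newborn chain Myh8 stood at 0.237, 0.341, 0.187 and 0.307 FPKM in the WT libraries and at 0.231, 0.282, 0.264 and 0.265 in the KO libraries. All KO values of Myh8 lie within the WT range. In a fit with no filter on low values (21819 genes, 0.0229% called), the log2 fold changes of these 3 chains were -0.04 for Myh7b, 0.06 for Myh3 and -0.01 for Myh8, with limma adjusted p = 0.960, 0.824 and 0.974. At the 50 M read pairs the labels state, the values would stand for about 118 to 347 fragments of Myh7b, 48.0 to 84.6 of Myh3 and 57.5 to 105 of Myh8 per library.

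**Figure D1:**
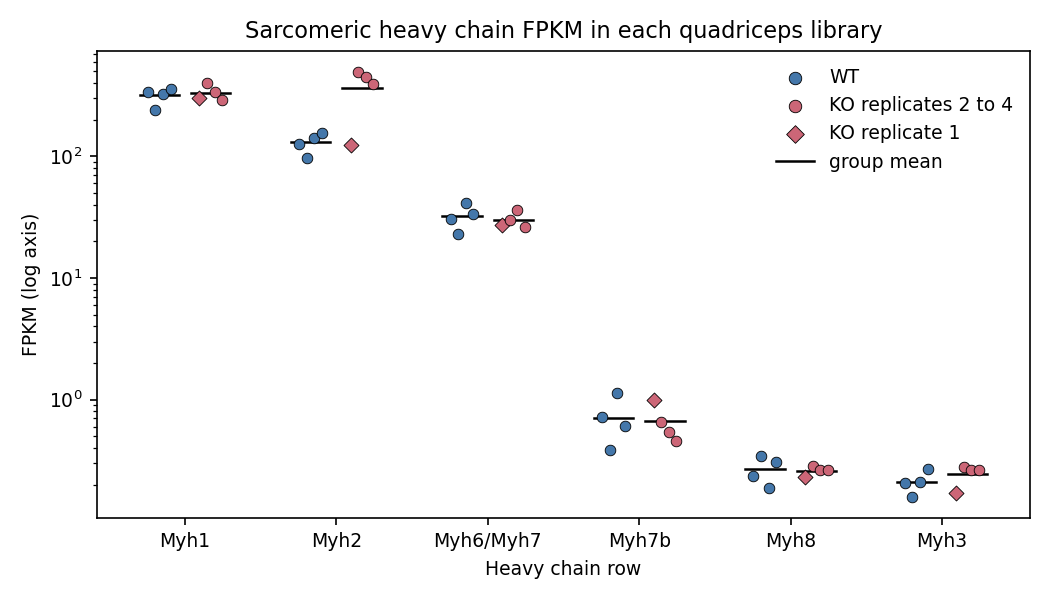
FPKM of the 6 measurable heavy chain rows on a log axis, 1 point per library, with WT libraries in blue, KO libraries in red, KO replicate 1 as a diamond and the group mean as a bar. Myh2 lies at 391 to 494 FPKM in KO replicates 2 to 4 and at 96.6 to 156 in the other 5 libraries, while the groups overlap in the other rows.

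Per kilobase, the order of the levels in every WT library was Myh1, Myh2, Myh6/Myh7 and Myh7b, followed by Myh8 and Myh3. The last pair overlap, at 0.187 to 0.341 FPKM for Myh8 and 0.159 to 0.269 for Myh3 in the WT libraries, and are not told apart. In KO replicates 2 to 4 Myh2 stood above Myh1, and in KO replicate 1 below it. The sum of the 6 rows was 499, 362, 511 and 552 FPKM in WT replicates 1 to 4 and 457, 929, 821 and 708 in KO replicates 1 to 4. KO replicates 2 to 4 are the 3 highest, and KO replicate 1 lies within the WT range.

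The make-up of the measurable chains was compared as each row's share of that sum, which does not depend on how a library was scaled. Myh2 made up 25.5%, 26.7%, 27.5% and 28.3% in WT replicates 1 to 4 and 27.4%, 53.2%, 54.5% and 55.3% in KO replicates 1 to 4. The WT libraries and KO replicate 1 lie close together, and the other 3 KO libraries lie close together at about double that share. The means were 27.0 ± 1.18% and 47.6 ± 13.5% (SD, n = 4), a difference of 20.6 percentage points (exact permutation p = 0.0857, two-sided).

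Myh1 held the larger share in the WT libraries, at 68.1%, 66.7%, 64.0% and 65.4%, and in KO replicate 1, at 66.4%. It held 43.5%, 40.9% and 40.8% in KO replicates 2 to 4, below every other library. The group means were 66.1 ± 1.75% and 47.9 ± 12.4% (SD, n = 4), a difference of -18.2 percentage points (exact permutation p = 0.0857, two-sided). Since the FPKM of Myh1 overlapped between the groups, its lower share in these libraries stands beside a larger total.

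The Myh6/Myh7 row held 6.12%, 6.36%, 8.12% and 6.13% in WT replicates 1 to 4 and 5.92%, 3.21%, 4.44% and 3.73% in KO replicates 1 to 4. Every KO library lies below every WT library, KO replicate 1 by little. The means were 6.68 ± 0.967% and 4.33 ± 1.18% (SD, n = 4), a difference of -2.35 percentage points (exact permutation p = 0.0286, two-sided, the smallest that 4 against 4 can give). Adjusted over the 3 shares, the Benjamini-Hochberg value was 0.0857 for each, and none passed. Myh3, Myh7b and Myh8 together held 0.214% to 0.298% in the WT libraries, 0.306% in KO replicate 1 and 0.130% to 0.139% in the other KO libraries. These shares are fixed by each other, so the 3 tests are not independent.

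**Figure D2:**
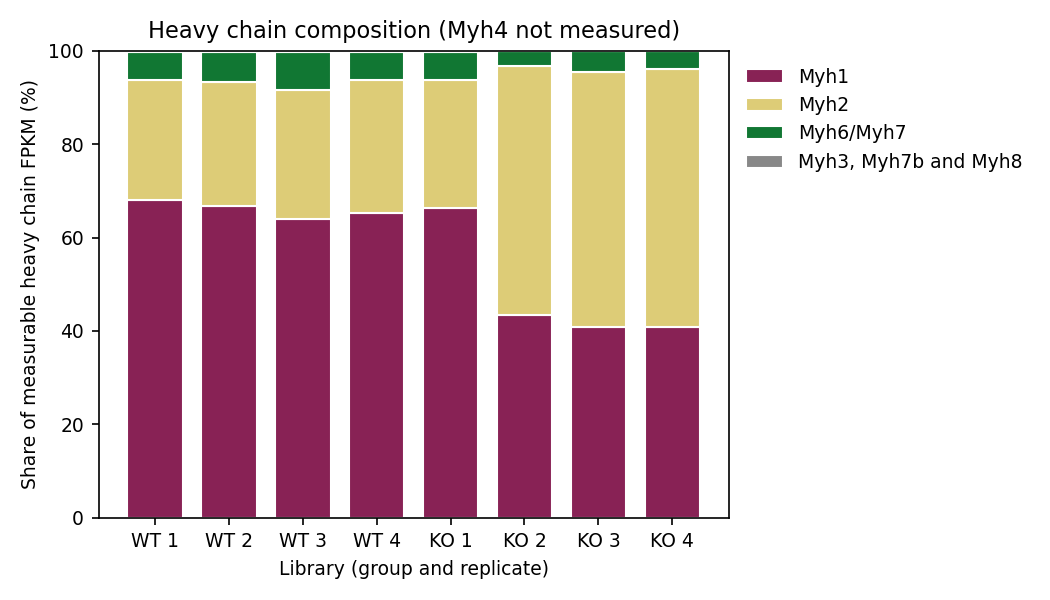
Share of the summed FPKM of the 6 measurable rows (percent) in each of the 8 libraries, 1 stacked bar per library, with Myh4 absent because it was not measured. The Myh2 block is 25.5% to 28.3% in the WT libraries, 27.4% in KO replicate 1 and 53.2% to 55.3% in KO replicates 2 to 4.

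Without KO replicate 1 the mean shares of the KO group were 54.3 ± 1.07% for Myh2, 41.7 ± 1.50% for Myh1 and 3.80 ± 0.617% for Myh6/Myh7 (SD, n = 3). Each of the 3 shares then had an exact permutation p of 0.0286, the smallest that 4 against 3 can give, and the same value after adjustment over the 3. KO replicate 1 was singled out by its shares of Myh2 and Myh1. For these shares the smallest value was thus fixed in advance, and it is a description of the gap. For Myh6/Myh7 the groups did not overlap with all 8 libraries, and KO replicate 1 was the KO library nearest to the WT libraries. Its p-value without that library is therefore a description too. The ratio of Myh2 to Myh1, 2 neighbouring genes measured in the same library, was 0.375, 0.400, 0.430 and 0.433 in WT replicates 1 to 4. It was 0.412, 1.22, 1.33 and 1.36 in KO replicates 1 to 4. KO replicate 1 sits among the WT libraries, and the other 3 KO libraries lie well above them all. On the log2 scale the difference between the groups was 1.26 (exact permutation p = 0.0857, two-sided) and 1.67 without KO replicate 1 (exact permutation p = 0.0286). The latter p was fixed in the same way.

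In RNA from a whole muscle, fewer fibres of a type and less of its RNA per fibre cannot be told apart, so no share is read as a fibre count.

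Antisense and other noncoding RNAs of the cluster on chromosome 11 were read beside the chains, since the strand setting is not given and reads from stretches that a gene and its antisense partner share cannot be told apart. 9430073C21Rik lies antisense to the end of Myh2 (chr11:67195680-67199234, minus strand) and shares 237 of its 2173 exon bases with exons of Myh2. Its FPKM was 4.71, 2.82, 4.81 and 4.75 in WT replicates 1 to 4 and 4.05, 14.7, 12.8 and 15.5 in KO replicates 1 to 4. KO replicates 2 to 4 again lie above all other libraries and KO replicate 1 within the WT range. In every library it stood at 2.85% to 3.97% of the FPKM of Myh2, with means of 3.27 ± 0.356% and 3.26 ± 0.50% (SD, n = 4). Its log2 fold change was 1.23 (limma adjusted p = 0.353), and 1.66 without KO replicate 1 (adjusted p = 0.0105).

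Myhas, named Gm12300 in the files, is a noncoding RNA that runs antisense from the stretch between Myh4 and Myh1 into Myh1 (chr11:67211256-67237573, minus strand). It shares 515 exon bases with Myh1 and 0 with Myh4. Its FPKM was 116, 108, 82.8 and 113 in WT replicates 1 to 4 and 118, 90.3, 93.8 and 71.6 in KO replicates 1 to 4. The groups overlap (log2 fold change -0.18, limma adjusted p = 0.752). The noncoding RNA 2310065F04Rik, known as linc-Myh, lies between Myh3 and Myh2 (chr11:67112461-67120080, minus strand). It stood at 27.7, 31.9, 31.9 and 37.1 FPKM in the WT libraries and at 53.3, 30.6, 33.4 and 27.8 in the KO libraries, with KO replicate 1 the highest. Its log2 fold change was 0.13 (limma adjusted p = 0.849), -0.07 without KO replicate 1 and -0.08 after rescaling to TPM.

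**Figure D3:**
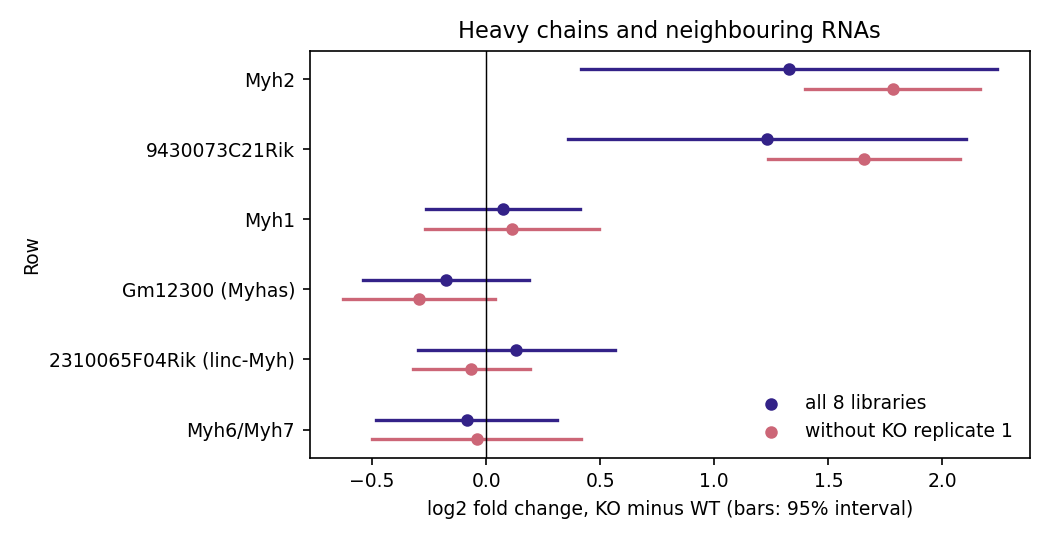
Log2 fold change (KO minus WT) of the 3 tested heavy chain rows and 3 neighbouring noncoding RNAs, as points with 95% intervals, for all 8 libraries and without KO replicate 1. Without that library the interval of Myh2 runs from 1.40 to 2.17, while those of Myh1, Myhas, linc-Myh and Myh6/Myh7 include 0.

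Each heavy chain works with light chains, troponins and calcium handling proteins of its fibre type. All 12 listed partners of slow fibres were tested, and all 12 had a log2 fold change above 0, with a median of 0.38 against 0.02 for all genes. None passed (limma), and 6 were higher at an unadjusted p under 0.05, which 7.5% of all genes were. After rescaling to TPM 9 of the 12 were above 0, with a median of 0.18 against -0.18 for all genes. Myl2, the slow regulatory light chain that binds the Myh7 product, stood at 260, 198, 353 and 298 FPKM in WT replicates 1 to 4 and at 272, 605, 876 and 763 in KO replicates 1 to 4. As for Myh2, the KO replicate 1 value lies among those of the WT libraries and the others lie above them. The ratio of Myl2 to the Myh6/Myh7 row was 8.53, 8.61, 8.51 and 8.79 in the WT libraries and 10.1, 20.3, 24.0 and 28.9 in the KO libraries. The light chain and the joint row thus stood in a near constant ratio across the WT libraries and in a higher one in KO replicates 2 to 4. The ratio of Myl3, the slow essential light chain, to the same row was 8.69 to 10.6 in the WT libraries and 11.2, 16.4, 16.5 and 19.8 in the KO libraries. These ratios were noticed in the data and are given with no test.

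Without KO replicate 1, 5 of the 12 slow partners passed, all higher, against 0.951% of all genes. They were Myl2 (log2 fold change 1.44, limma adjusted p = 0.0218), Casq2, the calcium store protein of slow fibres (1.40, adjusted p = 0.0334), and Myoz2, a Z-disc protein (1.38, adjusted p = 0.0141). Pln, the inhibitor of the slow calcium pump (1.04, adjusted p = 0.0470), and Mybpc1, slow myosin binding protein C (0.38, adjusted p = 0.0370), were the others. Casq2, Myoz2 and Mybpc1 are named because their values passed. KO replicate 1 was singled out by its values, so these 5 calls are descriptions. Myl6b, a slow light chain, was the 1 partner of the 12 whose groups did not overlap in all 8 libraries, where 3.89% of all genes were so on the higher side. It stood at 5.74, 7.05, 7.67 and 6.70 FPKM in the WT libraries and at 8.32, 10.6, 9.19 and 8.66 in the KO libraries (log2 fold change 0.41, limma adjusted p = 0.347).

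Of 13 listed partners of fast fibres, 10 were above 0 in every library, and 2 of the 10 had a log2 fold change above 0. Their median was -0.17, or -0.29 without KO replicate 1, when 0 of the 10 were above 0. None passed with or without that library (limma, all 8 libraries: 2 lower at an unadjusted p under 0.05, against 2.76% of all genes). Those 2, Mybpc2, fast myosin binding protein C (-0.46, adjusted p = 0.347), and Myoz3, a Z-disc protein (-0.40, adjusted p = 0.353), had groups that did not overlap, as did 1.61% of all genes on the lower side. Mybpc2 stood at 1149, 1253, 1077 and 1220 FPKM in the WT libraries and at 1006, 733, 933 and 762 in the KO libraries. All 4 KO libraries lie below the WT libraries, KO replicate 1 nearest to them. Actn3, the alpha-actinin of fast fibres, was at -0.25 (adjusted p = 0.566).

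The fast chains were low against their light chain in every library. Summed, Myh1, Myh2, Myh8 and Myh3 came to 2.43% to 4.58% of the FPKM of Mylpf, the fast regulatory light chain, in the WT libraries. The value was 3.35% in KO replicate 1 and 7.11% to 9.07% in the others. Myh4 is missing from this sum.

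**Figure D4:**
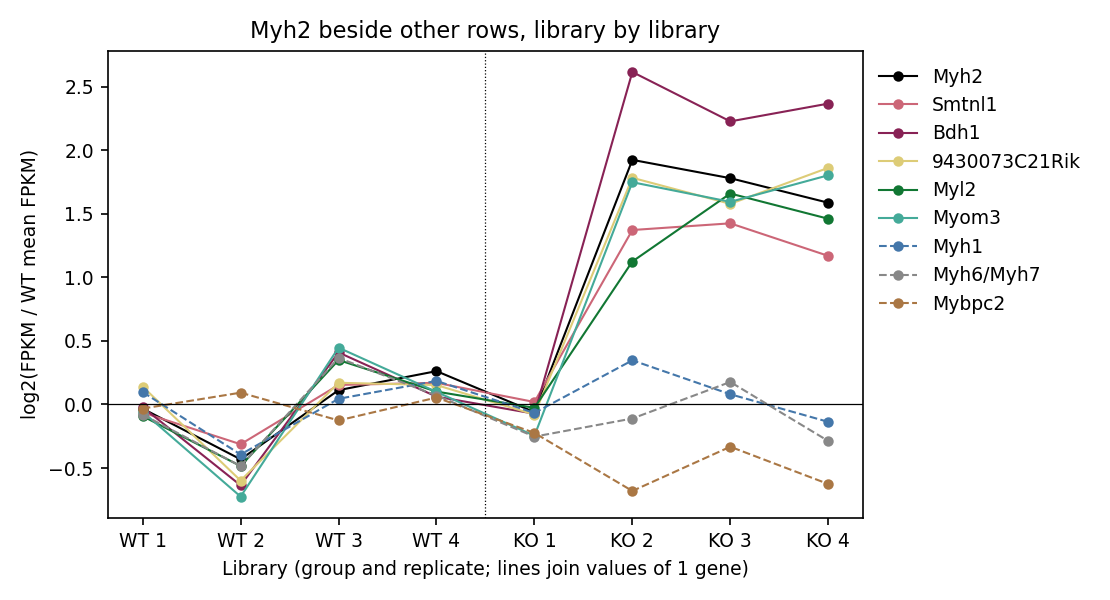
Log2 of each row's FPKM over its WT mean, library by library, for Myh2, Myh1, Myh6/Myh7 and 6 other rows, with lines that only join the values of 1 gene. Myh2, Smtnl1, Bdh1, 9430073C21Rik, Myl2 and Myom3 lie near 0 in KO replicate 1 and above 1 in KO replicates 2 to 4, while Myh1, Myh6/Myh7 and Mybpc2 do not.

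Of 14 listed proteins that fold, place and remove myosin, 5 were above 0, with a median of -0.04, where 54.4% of all genes were above 0 with a median of 0.02. After rescaling to TPM 1 was above 0, with a median of -0.26, against 18.0% and -0.18 for all genes. None passed (limma), and 1 was higher and 2 lower at an unadjusted p under 0.05, against 7.5% and 2.76% of all genes. Myom3, an M-band protein that crosslinks thick filaments in slow and type IIA fibres, stood at 4.60, 2.89, 6.52 and 5.12 FPKM in the WT libraries and at 4.03, 16.1, 14.4 and 16.7 in the KO libraries. KO replicates 2 to 4 stand above all other libraries, as for Myh2, with a log2 fold change of 1.21 (limma adjusted p = 0.401). Without KO replicate 1 it was 1.66 (adjusted p = 0.0168), and Myom3 was the only 1 of the 14 to pass, against 1.05% of all genes. Myom1, the M-band protein of all fibres, was at -0.23 (adjusted p = 0.357), with groups that did not overlap, as was so for 1.61% of all genes on the lower side. Myom2, the M-band protein of fast fibres, was at -0.38 (adjusted p = 0.440).

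Among 38 listed regulators of heavy chain type, such as Nfatc1 and Sox6, 37, all but Prox1, were tested and 16 were above 0, with a median of -0.04. After rescaling to TPM 5 were above 0, with a median of -0.24. None passed (limma), and 1 was higher and 3 lower at an unadjusted p under 0.05, against 7.5% and 2.76% of all genes. Esrrb, an orphan nuclear receptor, stood at 3.91, 2.13, 2.48 and 2.07 FPKM in the WT libraries and at 2.07, 7.18, 6.79 and 6.77 in the KO libraries, so that KO replicates 2 to 4 again lie above the rest. Its log2 fold change was 0.89 (limma adjusted p = 0.444), and without KO replicate 1 it was 1.27 (adjusted p = 0.0266), the 1 regulator of 37 to pass, against 1.05% of all genes. Eya1, a transcriptional cofactor, was at -0.38 and Nfatc3, a calcineurin-dependent factor, at -0.18 (adjusted p = 0.444 and 0.440). Prox1 was not tested because its mean was below 1 FPKM. It stood at 0.574, 0.491, 0.733 and 0.528 FPKM in the WT libraries and at 0.454, 0.740, 0.777 and 0.920 in the KO libraries. KO replicates 2 to 4 lay above all other libraries for Prox1, KO replicate 2 by little.

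Of 10 listed partners of developing and regenerating muscle, the setting of Myh3 and Myh8, 7 were tested, 4 were above 0 (1 after rescaling to TPM), and none passed (limma, 0 at an unadjusted p under 0.05). The embryonic light chain Myl4 was at -0.23, the acetylcholine receptor subunit Chrna1 at 0.26 and the growth factor Igf2 at 0.10, the last of which turned to -0.10 after rescaling to TPM. Of 6 listed heavy chains outside this set, 4 were tested, and none passed (limma, 0 at an unadjusted p under 0.05). The nonmuscle chains Myh10 and Myh14 were at 0.11 and 0.08, turning to -0.09 and -0.12 after rescaling to TPM, and the smooth muscle chain Myh11 was at -0.18.

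The tested genes whose pattern was most like that of Myh2, by Pearson r of log2(FPKM + 0.5) over the 8 libraries, were Smtnl1 (r = 0.997), Bdh1 (r = 0.990), Khdrbs3 (r = 0.987), Pcp4l1 (r = 0.987) and Fndc5 (r = 0.986). The 8 points share their scaling, and since KO replicates 2 to 4 stand apart from the other 5 libraries, these values are descriptions of that gap. Smtnl1, a smoothelin-like protein, stood at 18.3, 15.4, 21.3 and 21.5 FPKM in the WT libraries and at 19.4, 49.5, 51.4 and 43.0 in the KO libraries. Bdh1, which interconverts ketone bodies, stood at 7.72, 5.04, 10.4 and 8.18 FPKM in the WT libraries and at 7.45, 48.0, 36.6 and 40.4 in the KO libraries. Both have KO replicate 1 within the WT range and WT replicate 2 the lowest of all 8, as Myh2 does. Fndc5, the precursor of irisin, stood at 23.9 to 27.0 FPKM in the WT libraries, 26.7 in KO replicate 1 and 48.9 to 55.5 in the other KO libraries.

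For Myh1 the genes most alike were 1500002C15Rik (r = 0.981), the joint row of Hsd3b7 and Setd1a (r = 0.978), Atr (r = 0.955), BC026585 (r = 0.945) and Mkln1os (r = 0.941). None of these had a limma adjusted p below 0.782. For Myh6/Myh7 they were Apex2 (r = 0.945), Tiam2 (r = 0.942), U2surp (r = 0.918), Rpl9-ps6 (r = 0.914) and Gm9821 (r = 0.899). Most of the genes in both groups of 5 stood at or below a few FPKM.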

How the data were processed

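Quadriceps RNA of 8 mice, 4 labelled WT and 4 labelled KO, was sequenced as paired reads of 150 bases to a stated 50 M read pairs, per the labels' protocols. The authors deposited 1 table of FPKM per library, per the file headers. The submitters' processing notes name the build mm10 and the tools Cufflinks 2.2.1, Bowtie2 2.2.6, TopHat2 2.1.1 and FastQC, with no roles. The annotation, filters and strand setting are not given in the sources used here.

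Each table held 46036 entries, 2379 of them with no name, which were left out and carried 65.8% to 93.2% of the summed FPKM. For the 344 names on several entries the entry with the highest mean was used. The deposited FPKM were compared with limma 3.58.1 (R 4.3.3, mean trend, two-sided) as log2(FPKM + 0.5), KO minus WT. The fit took the 11878 genes that averaged 1 FPKM or more. Benjamini-Hochberg adjustment ran over all of them, with a threshold of 0.05. Shares and the log2 ratio were compared by exact permutation over all 70 assignments of the libraries (35 with 1 left out). The files hold no counts. Rough depth came from the steps between low values of 11442 genes with a single transcript, and no counting interval is given. Coding sequences were aligned with mafft 7.526. The fitting step was tested on simulated data.

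Named genes were all members, the 3 members of each list with the smallest p and any that passed, and the 5 genes most like each tested member. Further names chosen for their values are said to be so. Alternatives were other pseudocounts, filters, scalings and variance models, a block for the replicate number, and leaving out each library. Rescaling to TPM together with leaving out KO replicate 1 was added after seeing the data. Of the libraries left out in turn, KO replicate 1 was given most room because its values stood apart. The p-values without it are therefore descriptions. Members and lists were chosen with earlier results of these data known. The limma p-values set the difference between the groups against the spread among libraries within them. The exact permutation p-values set it against the other assignments of the libraries. Both rest on these 8 libraries alone.

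The marker lists gave these summed FPKM, lowest to highest library. Skeletal fibre markers came to 12300 to 14510 in the WT and 11000 to 13380 in the KO group, with Acta1 not matched to an entry. Heart markers came to 5.77 to 12.0 and 5.69 to 14.8, smooth muscle to 91.7 to 104 and 86.0 to 103, satellite cells to 17.7 to 31.0 and 12.9 to 30.0. Fibroblasts came to 729 to 800.0 and 553 to 824, adipocytes to 326 to 429 and 283 to 456, endothelium to 53.5 to 72.3 and 46.6 to 94.2. Macrophages came to 30.3 to 40.5 and 26.5 to 44.6, tendon to 75.0 to 147 and 51.8 to 131, and nerve to 21.9 to 31.3 and 23.2 to 36.2. Spindle markers, which include Myh6 and Myh7b, came to 24.3 to 43.1 and 27.2 to 37.2. Erythroid markers came to 509 to 1334 and 652 to 3171.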

Additional observations from a re-analysis of the deposited data

Results flagged for a closer look

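In groups of 4 libraries, 30 sets of values were checked for 1 library far from the other 3, by the gap to its nearest neighbour as a part of the whole range (Dixon's test at its 95% critical value). Chance flags about 1 in 20 such sets, and 7 stood out. KO replicate 1 was the distant library in 5 of them. Its share of Myh2 was 27.4%, against 53.2% to 55.3% in the other KO libraries, and its share of Myh1 was 66.4%, against 40.8% to 43.5%. Its log2 ratio of Myh2 to Myh1 was -1.28, against 0.29 to 0.44. These 3 values come from the same rows and are not separate findings. Its Myh3 was 0.170 FPKM, against 0.263 to 0.280, and its Mss51 was 340 FPKM, against 201 to 216, so that the library nearest to the WT group in its fast chains was the farthest from it in Mss51.

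The other 2 lay in the WT group. WT replicate 3 had a Myh6/Myh7 share of 8.12%, against 6.12% to 6.36%. WT replicate 2 had 2.82 FPKM of 9430073C21Rik, the RNA antisense to Myh2, against 4.71 to 4.81.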

How the results depend on the processing

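The number of genes past the threshold was 6, and 4 to 9 in 15 alternatives. It was 123 after rescaling to TPM, 125 without KO replicate 1 (4 to 125 over the libraries left out in turn) and 122 with both. TPM factors ran from 0.721 to 1.95 and rest on entries such as Atg7, listed at 921731 FPKM in KO replicate 4 and 0 in the other 7 libraries. The log2 fold change of Myh2 was 1.11 to 1.78 over its 19 alternatives. The log2 fold change of Myh1 turned to -0.14 after rescaling to TPM, -0.08 after quantile normalization and -0.053 without WT replicate 2. It turned to -0.024 without KO replicate 2 and to -0.21 with TPM and KO replicate 1 left out. That of Myh6/Myh7 turned to 0.045 without WT replicate 3. That of 2310065F04Rik turned to -0.076 after rescaling to TPM, -0.065 without KO replicate 1 and -0.38 with both. With each library left out in turn, the log2 fold change of Myh1 ran from -0.053 to 0.14. That of Myh6/Myh7 ran from -0.23 to 0.045 and that of 2310065F04Rik from -0.065 to 0.24. The cause of these turns was not tested. Over the libraries left out in turn, the difference in share was -24.3 to -15.8 percentage points for Myh1, 18.0 to 27.3 for Myh2 and -2.89 to -1.87 for Myh6/Myh7, and the log2 ratio of Myh2 to Myh1 was 1.10 to 1.67. In each of these the value farthest from 0 is that without KO replicate 1, the setting in which the test passed. As that library was singled out by these values, the pass is a description. With shares on the logit scale or over 3 rows alone no call changed.

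Same-numbered libraries did not deviate together (r of -0.010, -0.077, -0.081 and 0.009), so replicate numbers were not read as pairs. With the number as a block 0 genes passed (limma), and 958 had an unadjusted p under 0.05. Sign flips of the 4 differences cannot go below 0.125. Of the members, Myh3, Myh7b and Myh8 rest on the fewest fragments, and no counting interval can be given for them.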
